A study of Homo sapiens with 14 samples.

Results

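Primed-only BAF regions at promoters are stretches of the genome where subunits of the BAF chromatin remodelling complex were called beside a transcription start site (TSS) in primed human embryonic stem cells (hESCs) and not in naïve ones. All samples came from WIBR3, an established hESC line, grown on mouse feeder cells either in the conventional primed condition, with serum and FGF2, or as naïve cells in the 5i/L/A medium. BRG1, BAF155, BRM and SOX2 were mapped in each state by ChIP-seq, which sequences the DNA that an antibody pulls down with its protein. The labels describe 14 samples, of which 4 are inputs whose files were not used here, and the other 10 came with 1 peak list each. The members were chosen by the measured peaks. BRG1 and BAF155 peaks of a state were merged into BAF regions, a primed region counted as primed-only when neither it nor any naïve region was covered to 25% by the other, and a promoter region had its midpoint within 1 kb of a GENCODE transcript start on chromosomes 1 to 22 or X of hg38. This gave 4440 members, which are 14.6% of the 30335 primed-only regions and 23.2% of the 19147 primed BAF regions at promoters. Over both states there were 106393 BAF regions.

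BAF is the mammalian SWI/SNF complex, which uses ATP to slide or evict nucleosomes and so opens promoters and enhancers. BRG1 and BRM are its alternative ATPases and BAF155 is a scaffold subunit. In pluripotent cells BAF works beside OCT4 and SOX2, and many genes carry several promoters, of which the CpG-rich ones are mostly those of widely expressed genes. Of the 2 states, the naïve one is closer to the epiblast before implantation and the primed one to the epiblast after it.

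The sequences below show the 2 kinds of DNA that recur among the members. The first 3 lie under strong SOX2 peaks of members at protein-coding genes and are 200 bp windows of the hg38 plus strand at the SOX2 peak midpoint, with matches to the SOX letters CATTGT or CTTTGT, on either strand, in capitals. CHN2 encodes a regulator of the GTPase RAC, PHLDB2 a protein that anchors microtubules at the cell cortex, and DNMT3B a de novo DNA methyltransferase. The CHN2 and DNMT3B windows lay wholly in introns, and 53 of the 200 bases of the PHLDB2 window were exonic.
CHN2, chr7:29288603-29288802: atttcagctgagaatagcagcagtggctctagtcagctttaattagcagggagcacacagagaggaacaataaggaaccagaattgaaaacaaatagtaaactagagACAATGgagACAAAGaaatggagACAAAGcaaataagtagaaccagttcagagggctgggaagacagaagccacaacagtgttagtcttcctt
PHLDB2, chr3:111957419-111957618: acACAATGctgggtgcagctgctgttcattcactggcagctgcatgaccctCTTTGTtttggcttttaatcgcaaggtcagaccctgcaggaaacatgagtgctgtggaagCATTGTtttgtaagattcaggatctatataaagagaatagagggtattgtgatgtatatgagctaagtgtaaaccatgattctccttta
DNMT3B, chr20:32780864-32781063: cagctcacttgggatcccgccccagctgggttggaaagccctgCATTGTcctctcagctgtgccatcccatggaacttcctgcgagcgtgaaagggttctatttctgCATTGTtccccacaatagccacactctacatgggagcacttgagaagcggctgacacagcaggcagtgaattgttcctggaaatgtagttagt
The CHN2 window held 3 SOX matches and no CpG dinucleotide, and the PHLDB2 window 3 matches and 1 CpG.

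The next 2 windows lie at the midpoints of strong members without a SOX2 peak, with matches to the letters of KLF, TFAP2, ZIC, ETS or NRF1 sites in capitals. SLC12A8 encodes a solute carrier and CHRNA4 a subunit of nicotinic acetylcholine receptors. The SLC12A8 window was intronic and the CHRNA4 window lay outside annotated transcripts.
SLC12A8, chr3:125155930-125156129: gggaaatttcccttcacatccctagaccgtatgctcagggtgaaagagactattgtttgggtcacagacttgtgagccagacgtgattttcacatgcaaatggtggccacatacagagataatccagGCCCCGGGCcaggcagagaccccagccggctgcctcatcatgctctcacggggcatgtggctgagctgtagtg
CHRNA4, chr20:63378728-63378927: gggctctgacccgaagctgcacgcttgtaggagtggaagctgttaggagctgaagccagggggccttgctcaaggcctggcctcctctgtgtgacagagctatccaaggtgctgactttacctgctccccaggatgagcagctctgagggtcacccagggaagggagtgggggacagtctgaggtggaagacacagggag
The SLC12A8 window held 1 TFAP2 match (GCCNNNGGC) and the CHRNA4 window none of these motifs. The letters atgcaaat in the SLC12A8 window match the POU octamer, which was also searched but is not set in capitals here.

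The last window is a CpG-rich member, at the ribosomal protein gene RPS4X, with CpG dinucleotides in capitals. It was chosen after its values were seen and was intronic.
RPS4X, chrX:72276899-72277098: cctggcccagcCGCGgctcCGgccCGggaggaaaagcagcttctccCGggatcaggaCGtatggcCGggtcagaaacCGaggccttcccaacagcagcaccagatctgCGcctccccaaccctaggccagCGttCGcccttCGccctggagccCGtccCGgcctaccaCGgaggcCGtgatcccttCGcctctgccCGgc
It held 18 CpG dinucleotides in 200 bp at a GC content of 70.0%, against 0 and 41.5% in the CHN2 window.

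The 4440 members were mostly called by BAF155 alone. A BAF155 peak without a BRG1 peak made 3876 of them (87.3%), both subunits 538 (12.1%) and BRG1 alone 26 (0.586%). Primed-only distal regions were alike, with 88.2% called by BAF155 alone and 11.5% by both. At the 14497 merged promoter regions of the common class, which hold a BAF region in both states, 46.6% had both primed subunits. The primed BRG1 list was shorter, with 15611 peaks against 58352 of BAF155, whereas the naïve lists held 57853 and 62338. The fold enrichment over input, as the authors' peak caller gave it, had a median of 3.08 for BAF155 (range 2.15 to 10.2) and 3.47 for BRG1 in the 564 members with such a peak (2.32 to 9.37). These values chose the members and are given as a description. The members were narrow, with a median width of 470 bp and a middle 50% from 274 to 799 bp. Common promoter regions were wider, with a median of 1414 bp, and the 6631 naïve-only promoter regions had 464 bp.

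By median distance, naïve BAF lay nearer to members than to primed-only distal regions. The nearest naïve region lay at a median of 7771.5 bp from members and 14893 bp from those distal regions. It was within 1 kb for 16.8% of the members and 6.97% of the distal regions, and for 217 members none lay within 100 kb. Of the members, 198 shared some bases with a naïve region without reaching 25%, and 4242 shared none. Just inside the limit of 25% were members at BCAR1, covered to 24.8%, and at FAM118A and LINC01411, both covered to 24.7%. Just outside were regions at EIF5A, at 25.1%, and at CDCA5, at 25.2%. At the limit of 1 kb, members at RPL13AP20, CAB39L and ENSG00000239544 had midpoints 1000 bp from a start, and regions at NEAT1 and a Y RNA gene missed it at 1001 bp and at DLD at 1002 bp.

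The 10 members of highest fold at protein-coding genes had BAF155 folds from 6.18 to 10.2. The highest was at UNC5D, a netrin receptor, with 10.2 for BAF155 and 9.37 for BRG1. RPH3A, which encodes the synaptic vesicle protein rabphilin, followed with 8.94 for BAF155 and 4.15 for BRG1, and its member also held a SOX2 peak with a fold of 12.1. CHN2 had 7.15 for BAF155, 4.54 for BRG1 and 20.6 for SOX2, and TIAM2, an activator of RAC, had 7.06, 4.10 and 10.4. At DACH2, a transcription factor gene, BAF155 had 6.99 and SOX2 6.94 without a BRG1 peak. SLC12A8, CHRNA4 and PCCA, a subunit of the mitochondrial propionyl-CoA carboxylase, had BAF155 folds of 6.94, 6.73 and 6.31 and BRG1 folds of 5.07, 5.36 and 4.71, all without SOX2. The list ended with GSK3B, a kinase of the WNT pathway, at 6.20 for BAF155, 3.38 for BRG1 and 4.01 for SOX2, and PLAT, tissue plasminogen activator, at 6.18 for BAF155 and 5.76 for SOX2. The canonical start of most of these genes held a common region, that of PLAT a naïve-only region, and that of DACH2 alone a member.

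To ask where the members sat relative to transcription, each midpoint was set against its nearest start. The median distance was 211 bp, 1414 members (31.8%) were centred within 100 bp and 2600 (58.6%) covered the start itself. Midpoints lay 1 to 500 bp upstream in 36.6% and up to 500 bp downstream in 39.2%. In the common class 94.1% of the regions covered the start, and in the naïve-only class 47.3%, the common regions being wider as well. By the annotation, 37.4% of the member midpoints were exonic in some transcript, 48.6% intronic and 13.9% outside transcripts.

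**Figure D1:**
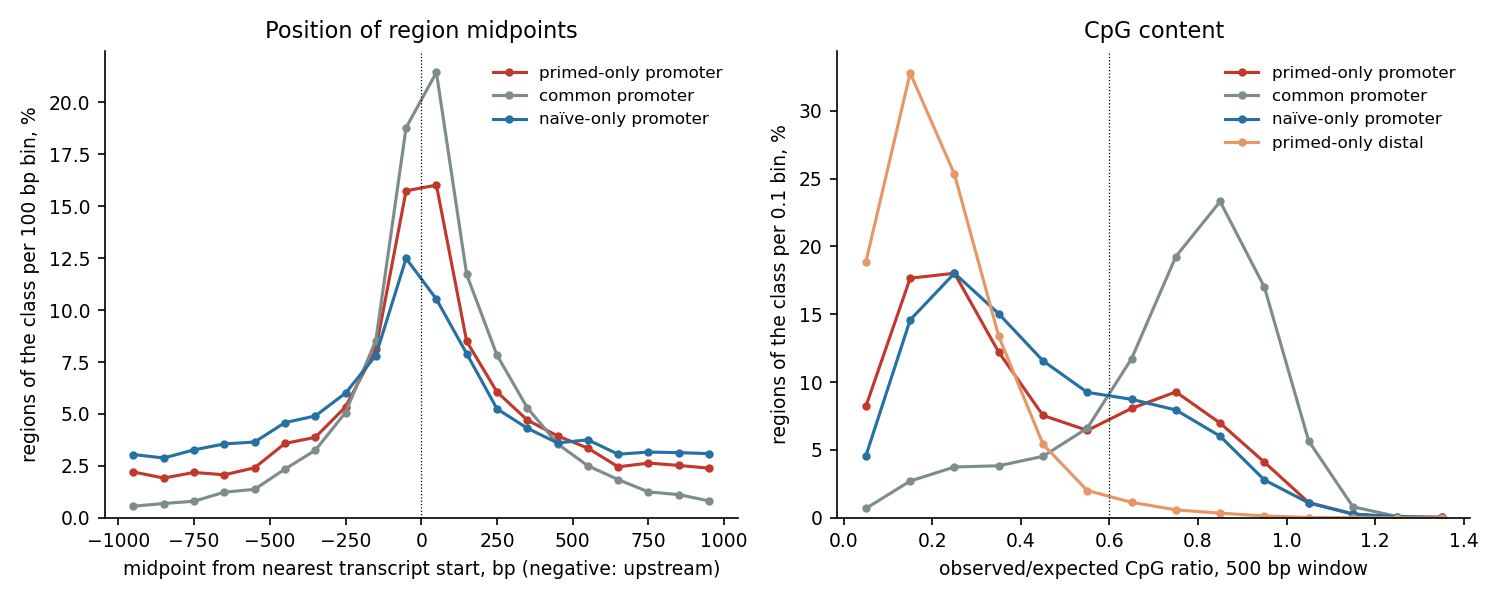
The left panel plots the share of regions in each 100 bp bin of midpoint distance from the nearest transcript start, and the right panel the share in each 0.1 bin of the observed/expected CpG ratio over 500 bp, with the line at 0.6. Members peak at the start less sharply than common promoter regions and show a high peak at a low CpG ratio, 18.02% in the bin from 0.2, and a smaller one of 9.28% in the bin from 0.7.

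CpG-rich windows were less frequent among members than among common promoters, by an amount that depended on the peak threshold. A 500 bp window at the midpoint was called CpG-rich when its GC content was above 50% and its observed/expected CpG ratio above 0.6. By this measure 1232 of 4440 members (27.7%) were CpG-rich, against 75.9% of common promoter regions, an odds ratio of 0.122 (95% interval 0.113 to 0.132). The share was closer to the 23.7% of naïve-only promoter regions (odds ratio 1.24, 1.14 to 1.35) and far above the 1.75% of primed-only distal regions (21.6, 19.2 to 24.2). The median GC content was 52.4% in members and 66.8% in common promoter regions. The distribution of the CpG ratio had a trough of 6.44% in the bin from 0.5 to 0.6, between the peaks on either side. Intervals here and below cover counting error within these libraries only, since each antibody had 1 usable list per state and regions are not replicates. The minority share did not hold where peaks were held to a stricter threshold, which also drops the weaker naïve peaks from the rule. At a −log10 q of at least 3, 3637 of 5534 members (65.7%) were CpG-rich, with an odds ratio against common promoters of 0.579 (0.529 to 0.635), and at a fold of at least 4, 1567 of 2522 (62.1%), with 0.859 (0.696 to 1.06). With BRG1 alone 757 of 1380 members (54.9%) were CpG-rich, and the odds ratios were 0.213 against common and 0.982 against naïve-only promoters.

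CpG-rich and CpG-poor members differed in position and in the start they sat at. CpG-rich members covered the start in 86.0% of cases, with a median distance of 88 bp, and CpG-poor ones in 48.0%, with 296.5 bp. A canonical protein-coding start, the one the annotation takes to represent the gene, lay within 1 kb of 968 of the 1232 CpG-rich members (78.6%) and of 550 of the 3208 CpG-poor ones (17.1%). Midpoints were intronic in 27.8% of the CpG-rich and 56.7% of the CpG-poor members. CpG-rich members were somewhat wider, with a median of 610.5 bp against 416.5 bp, at similar median BAF155 folds of 3.03 and 3.11.

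Compared with common promoters, members were less often at protein-coding starts and, among those, less often at the canonical one. A protein-coding start lay within 1 kb of 3091 members (69.6%) and of 88.5% of common regions (odds ratio 0.297, 0.273 to 0.322). For naïve-only promoters the share was 62.0% (odds ratio 1.405, 1.30 to 1.52). Among regions with a protein-coding start, it was the canonical one for 1518 members (49.1%), 82.0% of common regions (0.212, 0.195 to 0.231) and 35.2% of naïve-only regions (1.78, 1.62 to 1.96). The nearest start belonged to a long non-coding RNA for 25.4% of the members and 14.3% of the common regions, and to a processed pseudogene for 2.82% and 0.676%.

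The difference in canonical starts was found among CpG-poor promoters. Within CpG-rich windows 89.1% of members and 88.9% of common regions with a protein-coding start were at the canonical one (odds ratio 1.01, 0.829 to 1.24), whereas within CpG-poor windows the shares were 27.4% and 54.7% (0.314, 0.277 to 0.355). The share at any protein-coding start was lower for members in both windows, with odds ratios of 0.571 (0.473 to 0.689) and 0.563 (0.507 to 0.625). These comparisons within CpG classes were chosen after seeing the data. Over both windows, the canonical start was that of 3433 of 4610 members with a protein-coding start (74.5%) at a −log10 q of at least 3, 1400 of 2000 at a fold of at least 4 and 731 of 1107 (66.0%) with BRG1 alone, with odds ratios against common promoters of 0.680 (0.611 to 0.756), 0.937 (0.736 to 1.19) and 0.361 (0.312 to 0.416). For any protein-coding start they were 0.625, 0.669 and 0.393.

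**Figure D2:**
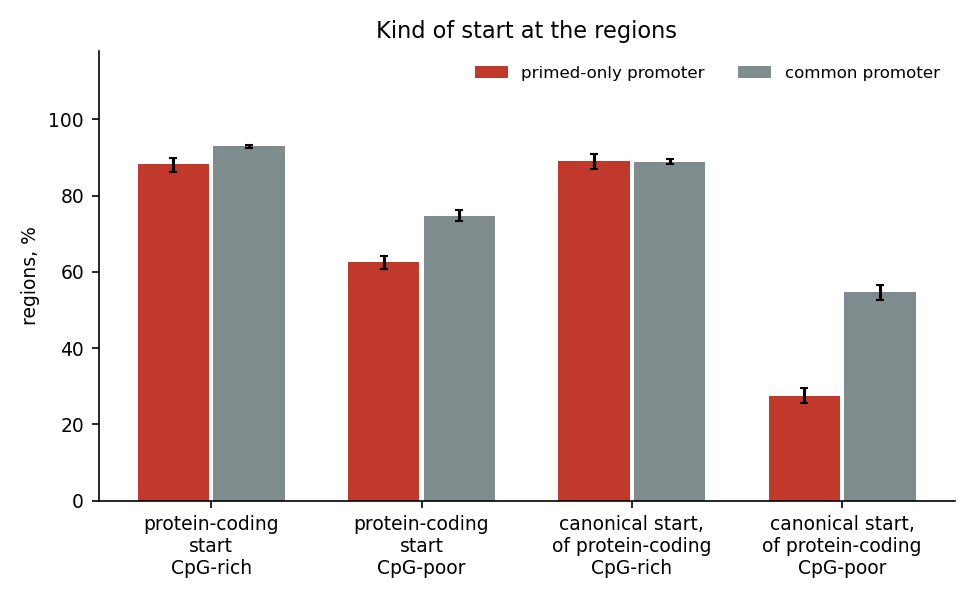
Bars give the share of regions at a protein-coding start and, among those, at the canonical start, in CpG-rich and CpG-poor windows, with exact 95% binomial intervals. Members and common regions stand level at canonical starts of CpG-rich windows, at 89.1% and 88.9%, and apart in CpG-poor windows, at 27.4% and 54.7%.

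Seen from the genes, 3040 of 19962 protein-coding genes (15.2%) had a member within 1 kb of some start. By the same count 63.2% of all genes had a common region and 18.2% a naïve-only region. Of the 3040 genes, 1708 (56.2%) had a member at the canonical start. Another 1049 (34.5%) had a common region and no member there, so that the primed-only region sat at another start of a gene whose main promoter carried BAF in both states. A common region lay at some start of 1373 of the genes (45.2%), a naïve-only region at some start of 729 (24.0%), and members alone at all occupied starts of 1285 (42.3%). Genes with a member had a median of 8 annotated starts against 5 over all genes. The share with a member was 7.003% for genes with 1 or 2 starts, 13.3% with 3 to 5, 17.4% with 6 to 10, 22.1% with 11 to 20 and 32.5% from 21 starts upwards, and each further start gives a gene another window in which a member could lie.

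Some genes with many annotated starts held several members. TCF12 has 25 starts, ANK2 71, DENND2B 56, MSI2 29 and TCF4 90, where the median over all genes is 5. TCF12, which encodes a basic helix-loop-helix E protein, had 7 members, of 252 to 632 bp, with BAF155 folds of 2.75 to 5.08. None of the 7 held a BRG1 or SOX2 peak, and a common region lay at the canonical start of TCF12. ANK2, the gene of the membrane adaptor ankyrin-B, had 6, and 4 of them held SOX2 peaks, with folds of 5.37 to 8.74. DENND2B, an activator of RAB GTPases, and MSI2, an RNA-binding protein of progenitor cells, had 5 each, with 1 SOX2 peak each at folds of 8.09 and 8.15. TCF4, another E protein gene and a marker of primed cells, had 4, of which the widest spanned 3322 bp with 3.59 for BAF155 and 4.26 for BRG1, and a member lay at its canonical start.

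Primed SOX2 peaks were not used to choose the members. Of the 4440 members, 413 (9.30%, 8.46 to 10.2) held a primed SOX2 peak, where 13.6% of all 58508 primed BAF regions did. The share was below the 14.1% of primed-only distal regions (odds ratio 0.623, 0.560 to 0.694) and above the 7.07% of common promoter regions (1.35, 1.20 to 1.52). The odds ratio against distal regions was 0.309 at a −log10 q of at least 3, 0.295 at a fold of at least 4 and 0.233 with BRG1 alone, and the one against common promoters 3.32 at a fold of at least 4, 2.24 with BRG1 alone and 2.99 where an overlap had to cover 25% of both regions. The lower share at promoters than at distal regions was also seen for naïve SOX2 peaks at naïve-only regions. The log2 odds ratio of promoter against distal was -0.68 in primed-only and -1.09 in naïve-only regions, and the difference of 0.41 (-0.06 to 0.88) did not pass the threshold.

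Sequence class and width both moved with SOX2. A SOX2 peak lay in 380 of 3208 CpG-poor members (11.8%) and 33 of 1232 CpG-rich ones (2.68%), an odds ratio of 0.205 for CpG-rich members (0.143 to 0.294). Canonical starts had SOX2 in 4.08% of members against 12.01% for the other members, and protein-coding starts in 7.64% against 13.1%. With the members divided by width at 274, 470 and 799 bp, the share was 3.14% in the narrowest class, then 7.14% and 9.45%, and 17.5% in the widest. A wider region also spans more bases in which a SOX2 peak can lie. Members with SOX2 had a median width of 747 bp and a median BAF155 fold of 3.78, against 448 bp and 3.05 without.

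The comparison with common promoters turned with what was held equal, while the one with distal regions did not. Within CpG classes members had fewer SOX2 peaks than common promoters, with 2.68% against 4.41% in CpG-rich windows (odds ratio 0.597, 0.417 to 0.853) and 11.8% against 15.4% in CpG-poor ones (0.736, 0.639 to 0.847). Combined over both classes the odds ratio was 0.712 (0.624 to 0.811), the reverse of the 1.35 over all regions. Within the 4 width classes it was 2.42 (2.10 to 2.80), and within CpG class and width together 1.40 (1.21 to 1.63). In the widest class of CpG-poor regions, 25.1% of members and 18.02% of common promoters held SOX2 (1.53, 1.25 to 1.86), and in the widest class of CpG-rich regions 4.62% and 4.91% (0.938, 0.587 to 1.501). Against distal regions the odds ratio stayed below 1, at 0.792 (0.709 to 0.885) within CpG classes, 0.477 (0.427 to 0.532) within width classes and 0.658 (0.587 to 0.739) within both. These stratified comparisons were chosen after seeing the data.

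**Figure D3:**
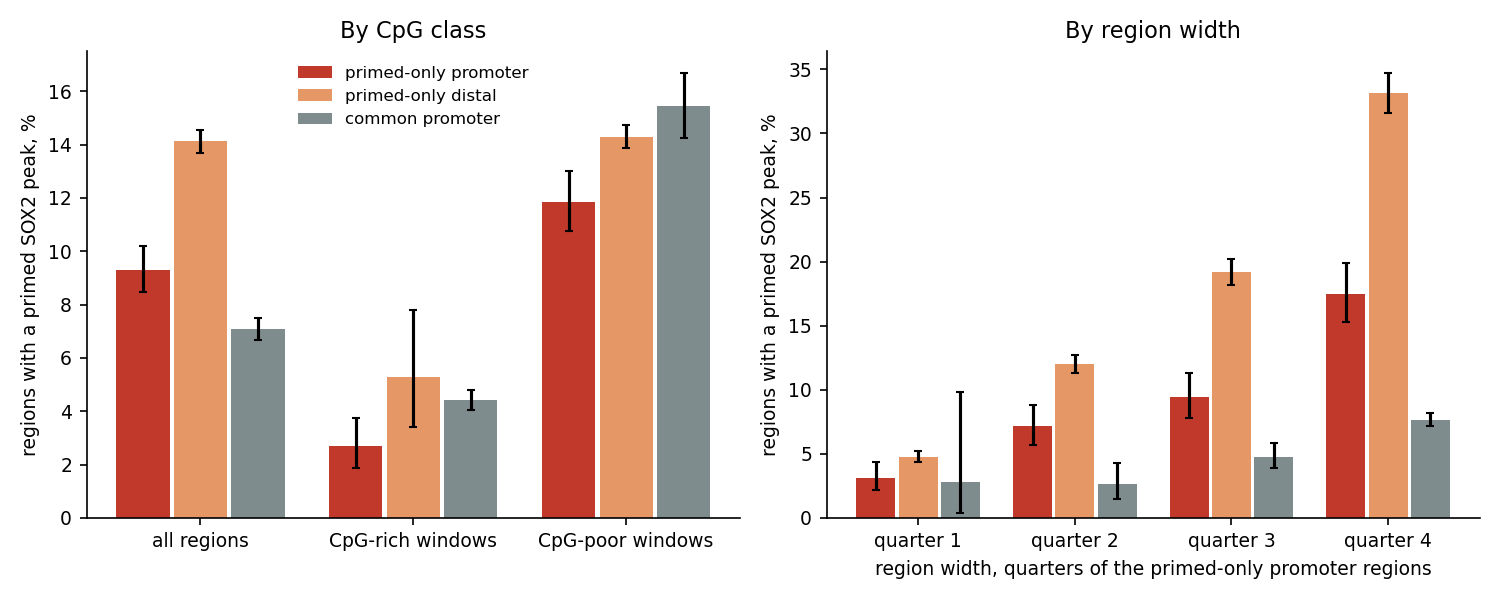
Bars give the share of regions with a primed SOX2 peak by CpG class (left) and by width class (right, cut at the quartiles of member width), with exact 95% binomial intervals. Members lie below distal regions in every panel, and above common promoter regions over all regions (9.30% against 7.07%) but below them within both CpG classes.

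The members with the strongest SOX2 peaks stood at genes of varied function. CHN2 had a SOX2 fold of 20.6, followed by ANO1, a calcium-activated chloride channel, with 19.9 and PHLDB2 with 19.7. At DNMT3B, SOX2 had 19.2 and BAF155 2.85 in a member centred 572 bp downstream of a start that was not the canonical one. NTMT2, a protein N-terminal methyltransferase gene, also had 19.2, in a member whose BAF155 fold was 5.68. SKI, a co-repressor of SMAD signalling, had a SOX2 fold of 17.0 and CER1, a secreted antagonist of NODAL and BMP, 16.9. EPHA4, an ephrin receptor, and ERO1A, an oxidoreductase of the endoplasmic reticulum, closed the list with 15.0 and 14.8. The canonical start held a member at NTMT2 and CER1. The 419 SOX2 peaks in members had a median fold of 6.60 (3.10 to 27.3) against 6.73 in the other primed SOX2 peaks, and 59.0% lay upstream of the nearest start, at a median distance of 275 bp.

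Naïve BRM and naïve SOX2 peaks at the members were limited by the rule itself. A naïve BRM peak lay in 14 (0.315%, 0.172 to 0.528) against 30.0% of common promoters, but naïve BRM peaks mostly lie in naïve BAF regions, which the rule left out, so that share was set largely by the rule. Among the 14, EGLN3, a prolyl hydroxylase of the hypoxia response, had a primed BAF155 fold of 5.12 and a naïve BRM fold of 2.87. The wide TCF4 member had 3.59 and 3.35. Naïve SOX2 peaks, which also lie mostly in naïve BAF regions, were in 5 members (0.113%), again a share set largely by the rule. At LINC00511 SOX2 had folds of 8.67 in naïve and 9.11 in primed cells, at ENSG00000288789 4.83 and 13.1, and at SOX5, a SOX family gene, 8.34 in naïve cells without a primed peak. Of the 167 primed BRM peaks, 1 fell in a member, at ENSG00000286032.

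To describe the sequence under the members, 15 motifs were searched on both strands in 200 bp windows at the midpoints. SOX letters (CATTGT or CTTTGT) were found in 25.6% of members, 17.1% of naïve-only promoters and 10.9% of common promoters, with odds ratios of 1.67 (1.53 to 1.84) and 2.81 (2.58 to 3.06). The OCT4-SOX2 composite element, which contains SOX letters and was allowed 2 mismatches, stood at 2.66%, 1.31% and 0.738% (2.05, 1.55 to 2.72, and 3.67, 2.82 to 4.78). ZIC letters (CCTGCTG) stood at 11.4%, 8.76% and 7.74% (1.33, 1.18 to 1.51, and 1.53, 1.37 to 1.71). For comparison, of 19970 windows at all canonical protein-coding starts 11.4% held SOX, 0.376% the composite element and 8.16% ZIC letters. A match is a description of the letters and not a site.

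The motifs of KLF and TFAP2 factors, which naïve cells are known for, were less frequent in members than in naïve-only and common promoters. KLF letters (GGGCGGGGC, GGGTGGGGC, GGGCGTGGC or GGGTGTGGC) were in 3.94% of members, 8.99% of naïve-only and 14.1% of common promoters, with odds ratios of 0.415 (0.349 to 0.494) and 0.251 (0.214 to 0.294). TFAP2 letters were in 11.01%, 15.2% and 26.7% (0.689, 0.614 to 0.773, and 0.339, 0.307 to 0.375). All canonical starts had 20.1% and 23.7%. The REST element, allowed 4 mismatches, stood at 0.473% in members, 1.84% in naïve-only and 1.45% in common promoters (0.254, 0.159 to 0.403, and 0.323, 0.206 to 0.507), against 0.696% of canonical starts. AP-1 letters (TGANTCA) went the other way, with 9.50%, 5.79% and 2.75% (1.71, 1.48 to 1.97, and 3.71, 3.22 to 4.27), against 3.04% of canonical starts.

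Part of these differences moved with GC content. With windows matched on GC, the odds ratio against common promoters was 1.17 (0.887 to 1.55) for the OCT4-SOX2 composite and 0.898 (0.802 to 1.01) for TFAP2, so neither passed, whereas SOX stayed at 1.499 (1.36 to 1.65), ZIC at 1.80 (1.59 to 2.04) and KLF at 0.616 (0.521 to 0.729). Against naïve-only promoters, whose GC content was close to that of the members, the matched values were 1.59 for SOX, 1.74 for the composite, 1.42 for ZIC, 0.425 for KLF and 0.729 for TFAP2, and their intervals all excluded 1. Stricter peak thresholds brought most values against common promoters closer to 1. At a −log10 q of at least 3 and at a fold of at least 4 they were 1.41 (1.25 to 1.60) and 1.55 (1.14 to 2.11) for SOX and 1.58 (1.28 to 1.95) and 2.56 for AP-1. The composite stood at 1.503 (1.04 to 2.18) and 3.58 (1.12 to 11.5). At the first of these thresholds KLF stood at 0.539, TFAP2 at 0.760 and AP-1 against naïve-only promoters at 1.17 (0.957 to 1.44), while REST, at 0.177, was farther from 1. With peaks held to a fold of at least 4, neither ZIC nor TFAP2 passed against either class, and KLF passed against naïve-only promoters alone.

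**Figure D4:**
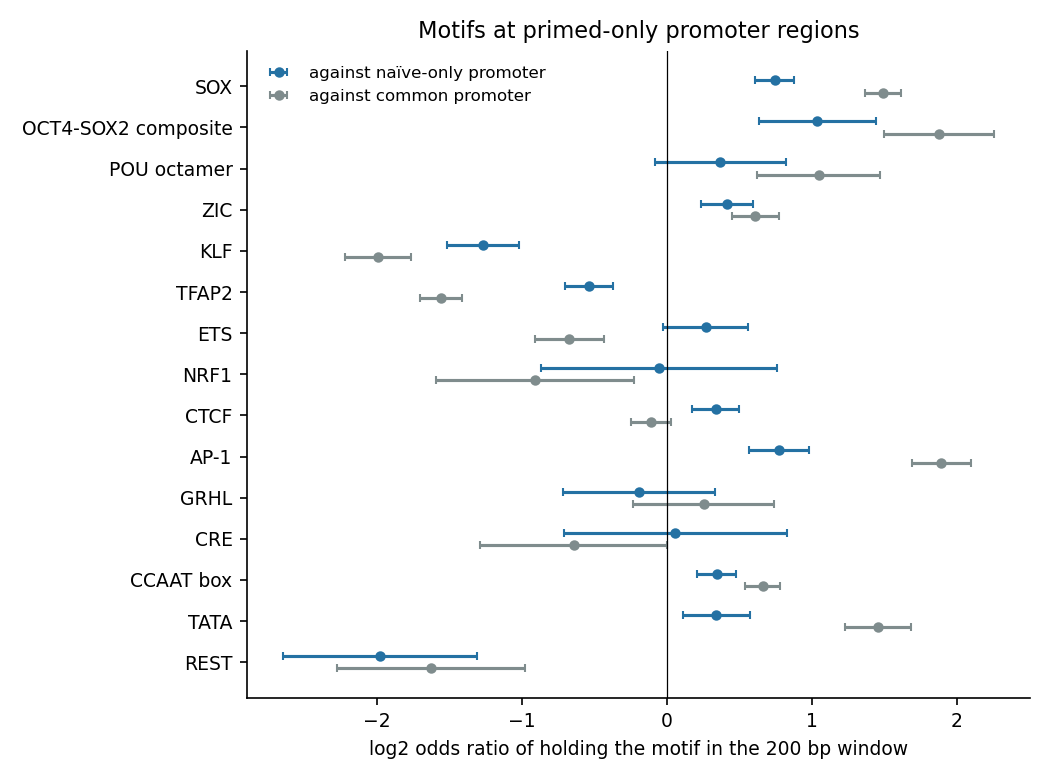
Points give the log2 odds ratio of holding each motif in the 200 bp window, members against naïve-only promoters (blue) and against common promoters (grey), with Woolf 95% intervals. SOX, the OCT4-SOX2 composite, ZIC and AP-1 lie right of 0 against both classes, and KLF, TFAP2 and REST lie left of 0 against both.

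Within the members, the motifs divided by CpG class and by SOX2 peak. ETS letters (CCGGAAG) were in 10.8% of CpG-rich and 1.34% of CpG-poor members (odds ratio 8.91, 6.27 to 12.6), and KLF letters in 8.44% and 2.21%. SOX letters were in 11.7% and 31.0%, AP-1 letters in 2.27% and 12.3% and TATAAA in 1.62% and 8.63%. Members with a SOX2 peak had SOX letters at the midpoint in 47.5% against 23.4% without (2.96, 2.41 to 3.64) and the composite element in 6.78% against 2.23% (3.18, 2.06 to 4.92). The CTCF element, allowed 2 mismatches, was less frequent with SOX2, at 7.99% against 15.0% (0.492, 0.341 to 0.710). Compared with windows 2 kb to either side, members held CTCF in 14.3% against 5.46% (2.90, 2.56 to 3.28), ZIC in 11.4% against 5.26% (2.31, 2.02 to 2.63) and ETS in 3.96% against 0.608% (6.75, 4.96 to 9.17). SOX letters differed less from these flanks, at 25.6% against 22.5% (1.19, 1.09 to 1.29). KLF stood at 3.94% against 1.55% (2.60, 2.07 to 3.26) and TFAP2 at 11.01% against 5.14% (2.29, 2.00 to 2.61). Against primed-only distal regions the odds ratio was 0.598 for SOX, 3.45 for KLF and 2.17 for TFAP2. CTCF did not pass against common promoters, at 14.3% and 15.3% (0.927, 0.843 to 1.02), and its odds ratio was 1.54 (1.39 to 1.72) in windows matched on GC. Centred on the SOX2 peak instead of the member, 63.0% of windows in members held SOX letters and 59.3% at the other primed SOX2 peaks, the composite stood at 13.1% and 18.4% and ZIC at 17.7% and 13.3%.

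The gene lists were read against the 15.2% of all protein-coding genes with a member, and against 8.56% counting canonical starts alone. Counts are descriptions, with exact intervals and no test of the lists. As a check of the labels, 8 of 20 primed markers (40.0%, 19.1 to 63.9) and 2 of 21 naïve markers (9.52%, 1.17 to 30.4) had a member, while 13 of the 21 naïve markers (61.9%) had a naïve-only region against 18.2% of all genes. This check is not independent of the data. The lists were chosen with earlier results known, and the primed markers PTPRZ1 and GAP43 are examples that the study itself names.

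Primed markers and regulators of neuroectoderm had shares above the background when any start was counted. At canonical starts the counts were 5 of 20 and 4 of 35, beside 8.56% of all genes. ZIC2, a zinc finger factor of neural development, had a member of 2138 bp (chr13:99983721-99985858) with folds of 3.62 for BAF155, 3.20 for BRG1 and 6.73 for SOX2. PTPRZ1, a receptor phosphatase of neural progenitors, had 3.65 for BAF155 and 3.39 for BRG1, THY1, a surface glycoprotein, 2.83 and 3.71, and GAP43, a growth cone protein, 3.56 for BAF155 alone, and the canonical start of each of these 3 genes held a member. Of 35 neuroectoderm regulators 11 (31.4%, 16.9 to 49.3) had a member, 4 of them at the canonical start. These included the homeobox factors LHX5 (2.89 for BAF155) and SIX3 (2.79), the nuclear receptor NR2F1 (3.65, SOX2 3.88) and SOX3 (3.48), whose canonical starts held a member, and OTX2 (2.69), EN1 (3.16) and MEIS2 (3.39), whose member lay at another start. Only ZIC2 and NR2F1 had SOX2 peaks among these 11 genes.

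Synaptic adhesion, endoderm and axon guidance lists followed in share. Of 48 synaptic adhesion genes 14 (29.2%, 17.0 to 44.1) had a member, 6 at the canonical start. CNTN5, a contactin, had 4.91 for BAF155, and LRRTM4, a postsynaptic adhesion protein, 4.08 for BAF155, 4.31 for BRG1 and 9.15 for SOX2. Of 74 axon guidance genes 16 (21.6%) had a member, 4 at the canonical start, a smaller share there than over all genes, among them EPHA5 (3.75) and the netrin receptor DCC (2.91). Of 20 endoderm regulators 6 (30.0%, 11.9 to 54.3) had one. AFP, alpha-fetoprotein, had 5.56 and 4.62 for BAF155 in its 2 members, and CER1 4.95 for BAF155 with SOX2.

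Signalling lists stood near the background. FGF pathway genes had members at 8 of 40 (20.0%), WNT pathway genes at 10 of 60 (16.7%), TGFβ and BMP pathway genes at 9 of 56 (16.1%) and NOTCH pathway genes at 3 of 26 (11.5%). The canonical start of FGF5, a ligand expressed in primed cells, held a member with 2.90 for BAF155, and that of FZD2, a WNT receptor, one with 3.15 for BAF155, 3.19 for BRG1 and 8.42 for SOX2. LEFTY1, an inhibitor of NODAL, had 2 members with 3.20 and 3.02. Cadherins (6 of 32, 18.8%), collagens, laminins and integrins (16 of 86, 18.6%), ion channels (26 of 150, 17.3%), mesoderm and streak regulators (5 of 29, 17.2%), clustered protocadherins (8 of 53, 15.1%), HOX genes (5 of 39, 12.8%) and trophoblast regulators (3 of 25, 12%) were likewise near it. Of 12 genes that the study names 2 (16.7%) had a member. None of 19 core pluripotency genes had one, which allows a share of up to 17.6%, and 4 of 400 olfactory receptor genes (1.00%) did, a family of which 95.5% had no BAF region of any class.

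Ribosomal protein genes were the list with the highest share at canonical starts. Of 84 such genes 29 (34.5%, 24.5 to 45.7) had a member, 27 at the canonical start. Of the 84, 25 had a member and no common region at any start, where 8.35% of all protein-coding genes did. In contrast to the neural lists, 26 of the 29 members were CpG-rich. A SOX2 peak lay in 0 of the 29, where 2.68% of all CpG-rich members held one. It also lay in 0 of the 17 members at collagens, laminins and integrins, of which 4 were CpG-rich. At TGFβ and BMP pathway genes it lay in 0 of 10, of which 1 was CpG-rich. Over all members the share was 9.30%, and these counts are small. Other short lists had none either, among them FGF pathway genes with 9 members and mesoderm and streak regulators with 7. The BAF155 folds of the ribosomal members were modest, from 2.54 at RPL27A to 3.97 at RPS4X, with a median of 3.07. BRG1 peaks joined at RPL38 (3.95, with 3.21 for BAF155), RPL5 (3.53 and 3.47), RPS10 (3.45 and 2.87), RPL14 (3.29 and 3.05) and RPS15 (3.22 and 2.99). A common region lay at some start of 46 of the 84 genes (54.8%), against 63.2% of all genes, and a naïve-only region at 18 (21.4%). These genes have many processed copies elsewhere in the genome, and how reads that map to more than 1 place were treated in these peak calls was not tested here.

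Members at genes named ZNF, mostly zinc finger repressors, were also mostly CpG-rich, but the share of genes was near the background when any start was counted. Of 508 such genes 84 (16.5%, 13.4 to 20.1) had a member, against 15.2% of all genes. At the canonical start 66 of the 508 had one, a larger share there than the 8.56% of all genes. Of their 81 members 53 were CpG-rich and 3 held a SOX2 peak, and the median BAF155 fold was 2.90. A naïve-only region lay at some start of 150 of the 508 genes (29.5%), against 18.2% of all genes.

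**Figure D5:**
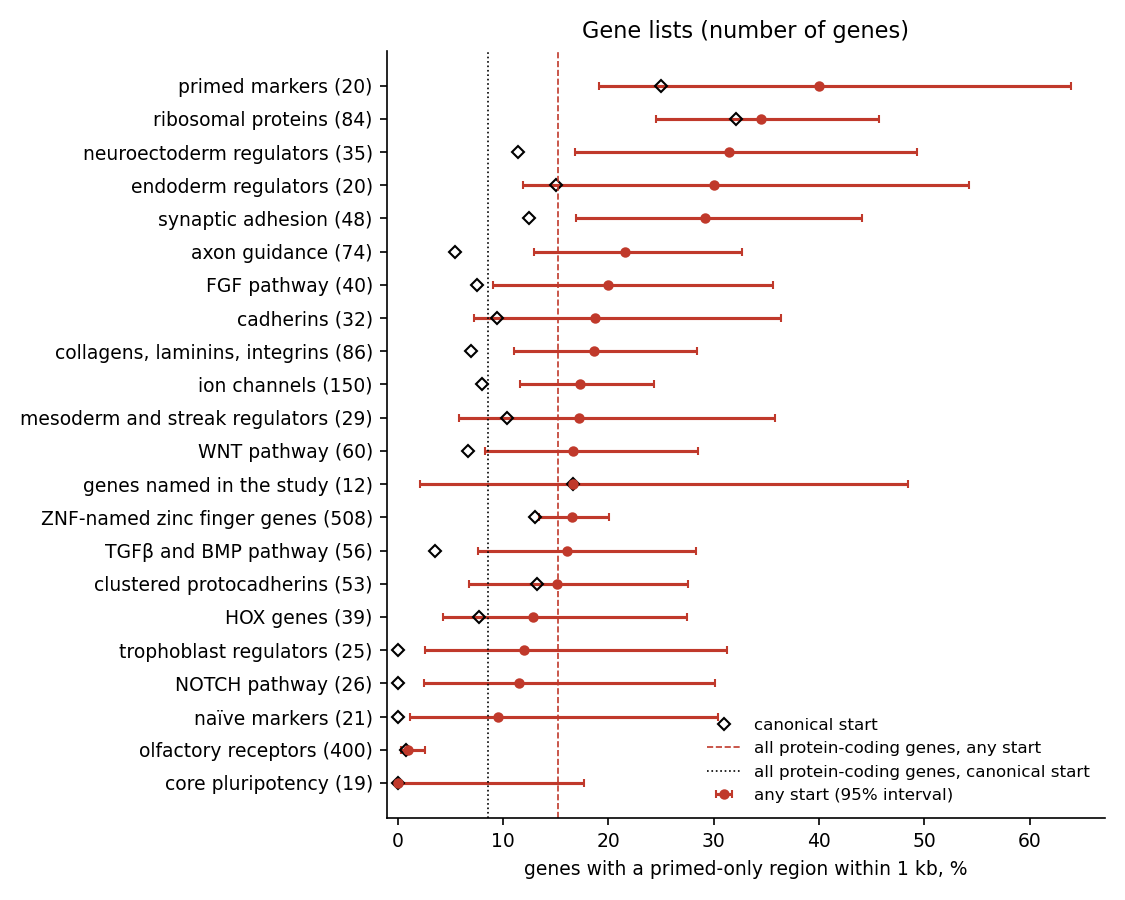
Red points give the share of each list's genes with a member within 1 kb of any start, with exact 95% binomial intervals and the number of genes in parentheses, and open diamonds the share at the canonical start. The dashed line marks 15.2% and the dotted line 8.56% of all protein-coding genes, and ribosomal protein genes stand at 34.5% for any start.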

How the data were processed

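ChIP-seq peak lists for BRG1, BAF155, BRM and SOX2 in naïve and primed WIBR3 cells were analysed. According to the study's methods, the authors trimmed the reads with trim_galore, aligned them to hg38 with Bowtie2 (2.3.4), processed them with SAMtools (0.1.19) and PICARD, and called broad peaks for the BAF subunits and narrow peaks for SOX2 with MACS2 against the input. The deposited lists give for each peak a fold enrichment over input, which is a linear ratio, and −log10 of the q-value. Neither value is given for primed BRM or for the second SOX2 library of either state. The lowest −log10 q was 1.00 to 1.01 in the BAF lists and 1.31 and 1.35 in the SOX2 lists, as the authors' threshold left them, so a missing peak is a call below that threshold. Read depths were not used here.

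The 2 SOX2 lists of a state had identical coordinates and were counted as 1 sample, so no comparison has a replicate error. BAF regions were merged within each state and compared between states, with overlap at 25% of either region. Starts, biotypes and canonical transcripts came from GENCODE release 44. Motifs were searched in hg38 in 200 bp windows and CpG content in 500 bp windows. Shares carry Clopper-Pearson intervals and odds ratios Woolf 95% intervals, with 0.5 added where a count was 0, and combined odds ratios are Mantel-Haenszel estimates. A difference passed where the interval excluded 1. Two-sided Fisher's exact tests were also computed on the region counts, but no p-value is given, since regions of 1 library do not replicate a condition. The overlap and motif code was tested on simulated data.

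The members, gene lists, motifs and tests were chosen with earlier results of these data known. Named are the 10 members of highest BAF fold and the 10 of highest SOX2 fold at protein-coding starts, the up to 3 of highest fold holding primed BRM, naïve SOX2 or naïve BRM, the 5 genes with most members, members of the 22 gene lists by fold, and the regions on either side of the limits. Some further members of the lists were named after their values were seen. Some items that these rules select are not reported here. Printed windows are among the first of these rankings that met the criteria given, leaving out windows with more than 30 bases of untranslated region. Python 3.11.15, numpy 2.4.6, pandas 2.3.3, scipy 1.17.1 and matplotlib 3.10.9 were used.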

Additional observations from a re-analysis of the deposited data

How the results depend on the processing

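Of 221 alternatives for the main comparisons, 198 were counted as unchanged, some of them at another size. An odds ratio was unchanged where it kept its direction and its side of the threshold. A share was unchanged where it stayed within the main interval, and a count where it stayed within a set factor. The 198 include runs whose outcome was fixed, such as the second SOX2 list, which is identical to the first. For the other alternatives the cause was not tested. Against common promoters the odds ratio for CpG-rich windows ran from 0.122 to 0.579 at a −log10 q of at least 3, and for canonical starts from 0.212 to 0.680. With peaks held to a fold of at least 4, the members numbered 2522. The odds ratio against common promoters was then 0.859 for CpG-rich windows, 0.937 for canonical starts, 0.768 for KLF, 1.02 for TFAP2 and 1.34 for ZIC, against naïve-only promoters 0.908 for TFAP2 and 1.18 for ZIC, and 30.1% of members held naïve BRM and 2.14% naïve SOX2. With −log10 q of at least 3, TFAP2 against naïve-only promoters was 1.02 and naïve SOX2 0.379%. With BRG1 alone there were 1380 members, the CpG-rich odds ratio against naïve-only promoters was 0.982 and naïve BRM 2.83%, and with BAF155 alone naïve BRM was 1.20%. With overlap of 25% of both regions naïve BRM was 2.49%. The setting with the same number of peaks per antibody left 167 of 17413 naïve BRM peaks and 1940 of 9290 primed SOX2 peaks, those of highest −log10 q. Naïve BRM was then 0%, a share that so short a list largely fixes, and the SOX2 odds ratio against common promoters 1.13. With all peaks and within CpG class, that ratio was 0.712. Matched on GC, the OCT4-SOX2 composite was 1.17 and TFAP2 0.898 against common promoters. Counting canonical starts only, a choice made after seeing the data, 8.56% of genes had a member.

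Of 284 alternatives for single motifs and lists, 26 turned direction. Against common promoters these were CTCF in 100 bp windows (1.09), with BAF155 alone (1.03), at a fold of at least 4 (1.20) and matched on GC (1.54), ETS at −log10 q of at least 3 (1.11), with BRG1 alone (1.02) and at a fold of at least 4 (1.62), GRHL (AACNGGTT) at a fold of at least 4 (0.641) and matched on GC (0.606), and, matched on GC, the POU octamer ATGCAAAT (0.853) and TATA (0.809). Against naïve-only promoters they were CRE (TGACGTCA) at −log10 q of at least 3 (0.554) and a fold of at least 4 (0.613), ETS with BRG1 alone (0.867), GRHL with BRG1 alone (1.48), at a fold of at least 4 (2.14) and within 2 kb (1.08), NRF1 (CGCATGCG) with BAF155 alone (1.20), at a fold of at least 4 (2.13), matched on GC (1.03), with overlap of 25% of both regions (1.02) and the same number of peaks (1.17), the octamer with BAF155 alone (0.887) and the same number of peaks (0.923), and TATA at −log10 q of at least 3 (0.836) and matched on GC (0.954).

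No paired analysis was possible because the 2 SOX2 lists of a state were identical and every other group had 1 library. The second SOX2 list alone gave the values of the first. With protein-coding starts only, the share at protein-coding starts has no value. A missing peak can come from depth, which the lists do not give and which was not tested. The naïve BRG1 list was longer than the primed one. In the study's quality metrics the primed libraries of BRG1 and BAF155 had more non-redundant uniquely mapped reads than the naïve ones.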
